A study of Mus musculus with 6 samples.

Results

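Collagen chain genes were taken from the gene counts of mouse sciatic nerve as every gene whose symbol is Col, a number, a and a further number, which gave 44 of the 24015 genes counted. RNA-Seq was available for 6 libraries from nerves at postnatal day 14, 3 from control mice and 3 from Rnf40ΔSC mice. The comparison asks which collagen transcripts differ once the ubiquitin ligase gene Rnf40 has been deleted in Schwann cells. Each library was made from RNA of a pool of 3 nerves.

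Control mice were Rnf40 fl/fl and carried no Cre. Rnf40ΔSC mice were also Rnf40 fl/fl and in addition carried the Dhh::Cre transgene, in which regulatory sequences of Desert hedgehog drive Cre in the Schwann cell lineage. Both genotypes shared a mixed background, which the sample labels give as 129SvJ/C57Bl/6J and the methods as C3H and C57Bl/6J. The labels name the NEB Next Ultra library kit and the methods a directional one, and the labels do not differ between the genotypes in either respect. The RNA came from whole nerve, so that collagen transcripts of fibroblasts, perineurial cells, vessels and Schwann cells were counted together.

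Collagens are secreted or membrane-bound proteins in which a triplet of chains, alike or different, winds into a triple helix. In nerve, fibrillar collagens of the endoneurium, perineurium and epineurium bear tension, and network-forming collagen IV is a scaffold of the basal lamina around each Schwann cell and axon unit. Fibril-associated collagens with interrupted triple helices (FACIT) decorate fibrils, transmembrane collagens span the cell membrane, and Schwann cells as well as fibroblasts are known to produce collagen.

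Control libraries held 1317167, 1992622 and 2468765 counted reads and Rnf40ΔSC libraries 2184268, 1459387 and 2186710, for replicates 1, 2 and 3 of each genotype. Values of single libraries are always given in this order. Normalised read counts are counts scaled by TMM to the mean library size, and averaging them across the 6 libraries gives the base mean of a gene. The quasi-likelihood test of edgeR was applied to 11371 genes with Benjamini-Hochberg adjustment, and a gene passed the test at an adjusted p of at most 0.05. Rnf40 itself had 130.2, 126 and 142 normalised read counts in control and 90.2, 90.4 and 94.2 in Rnf40ΔSC libraries (log2 fold change -0.54, SE 0.14, edgeR adjusted p = 0.00242). Each Rnf40ΔSC library lay below each control library, in accord with the labels. With counts scaled by library totals the Rnf40 log2 fold change was -0.27 and did not pass (edgeR adjusted p = 0.12, range over the scalings and DESeq2 0.00269 to 0.12).

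The 6 Schwann cell markers given here, led by Sox10, summed to 2319.8, 2636 and 2551 normalised read counts in control and 1542, 1478 and 1433 in Rnf40ΔSC libraries. Fibroblast markers, led by Dcn, summed to 10156, 10368 and 10284 normalised read counts in control and 8747, 8224 and 8241 in Rnf40ΔSC libraries.

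Collagen transcripts took a sizeable share of the reads counted in these nerves. Their share of all counts was 6.17%, 5.81% and 6.44% in control nerves and 5.31%, 5.19% and 5.35% in Rnf40ΔSC nerves. After TMM scaling their sum was 129071, 126244 and 136741 normalised read counts in control and 96103, 91284 and 93336 in Rnf40ΔSC nerves. On both scales the Rnf40ΔSC libraries were below all control libraries. In RNA of whole nerve, fewer cells that make collagen and less collagen RNA per cell cannot be told apart.

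Of the 44 collagen genes, 37 had enough counts to be tested. Among these, 17 were lower and 7 were higher in Rnf40ΔSC nerves, and 13 did not pass the test. Over all genes tested, 16.2% were lower and 15.4% were higher. The median log2 fold change was -0.34 for the collagen genes and -0.0026 for all genes. When the base mean had to reach 20 and the absolute log2 fold change 0.8, 3 collagen genes were lower, where 5.05% of all genes were, and 6 were higher, where 3.73% of all genes were. With library totals only 1 collagen gene was lower past these limits, and with DESeq2 only 3 were higher. Shares of all genes past these limits were counted for TMM scaling with edgeR only, so these 2 counts have none beside them. The 3 lower genes with TMM scaling were Col23a1, Col28a1 and Col4a3, and the higher ones were Col7a1, Col9a3, Col11a2, Col8a2, Col24a1 and Col2a1. Without Rnf40ΔSC replicate 1, the number of higher collagen genes at the adjusted p alone was 4 in place of 7. Of all genes 12.3% were then higher, in place of 15.4%. DESeq2 gave 17 lower and 3 higher, with 8.74% and 8.24% of all genes called. Shares of all genes for DESeq2 are always over the 13479 genes that it tested. Among the 11371 genes of the edgeR test, DESeq2 called 1171 lower and 1059 higher. The lower collagen genes of DESeq2 shared 16 with edgeR, without Col11a1 and with Col6a5.

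The split between lower and higher depended on how libraries were scaled. Scaling by library totals in place of TMM raised the median log2 fold change of all genes to 0.27, and 11 collagen genes were then lower and 14 higher, against 17 and 7. Over all genes, 7.74% were lower and 33.1% higher on this scale. Relative to all genes, the collagen median was -0.34 on either scale. Rescaling moves all genes by about the same amount, so this equality is no test of the collagen result. TMM factors were 0.928, 0.893 and 0.913 in control and 1.07, 1.10 and 1.11 in Rnf40ΔSC libraries. With scaling by RLE, a median of ratios, the collagen counts were again 17 and 7.

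**Figure D1:**
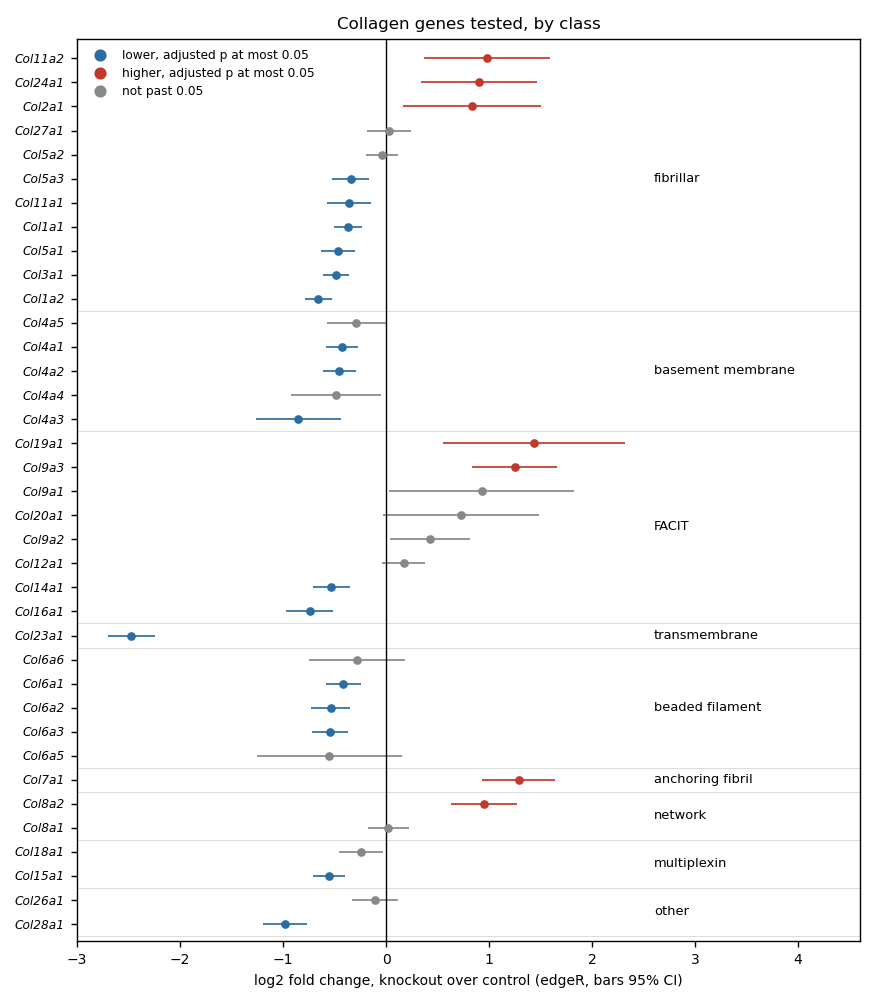
Log2 fold change of 37 collagen genes between Rnf40ΔSC and control nerves on the x axis, grouped by class, with points at the edgeR estimate and bars for the 95% confidence interval (3 libraries per genotype). Most genes of the fibrillar, basement membrane and beaded filament classes lie left of 0 after TMM scaling, whereas with library totals 2 fibrillar genes were lower and 5 higher; Col23a1 lies farthest left at -2.47 and the 7 genes that rose are spread over the fibrillar, FACIT, anchoring fibril and network classes.

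The direction of change went with how abundant a collagen gene was. Of 12 collagen genes whose base mean reached 1000, 11 were lower and 0 were higher by edgeR, also at an unadjusted p under 0.05 and with DESeq2, and their median log2 fold change was -0.46. The remaining one was Col5a2, which did not pass the test. Abundant genes in general were often lower, since 53.4% of the 193 genes above this level were lower and 18.1% higher, with a median of -0.34. Below a base mean of 1000, 6 of 25 collagen genes were lower and 7 were higher (median 0.021), against 15.5% and 15.4% of all genes. The level of 1000 was chosen after the values had been seen. Under scaling by library totals, 6 of the 12 abundant collagen genes were lower and 1 was higher, with a median of -0.19. Of the 193 genes 36.8% were then lower and 32.6% higher, with a median of -0.073. Over all collagen genes tested, 14 were higher with library totals (33.1% of all genes) and 3 with DESeq2 (8.24%).

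Levels of different genes were compared per kilobase of the longest protein-coding transcript. On this scale Col3a1 led in control nerves with 8844 normalised read counts per kilobase, followed by Col1a2 with 5198 and Col1a1 with 3346. Col4a1 and Col15a1 came next, at 862 and 797. All 7 genes that were higher in Rnf40ΔSC nerves had low control levels, from 1.37 for Col19a1 to 14.2 for Col8a2. The control level also enters the fold change, so a rise and a low control level are not independent. Col19a1 had 3, 7 and 6 reads in control and 24, 15 and 14 in Rnf40ΔSC libraries. Only the latter gave it enough counts to be tested. Genes that were lower covered a wide span, from 7.73 for Col4a3 to the level of Col3a1.

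**Figure D2:**
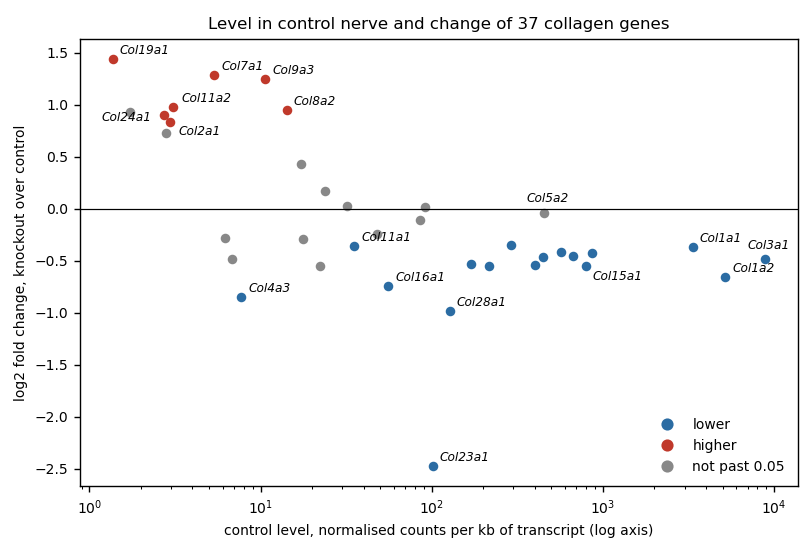
Control level of each of 37 collagen genes in normalised read counts per kilobase of transcript (x axis, log scale) against its log2 fold change between Rnf40ΔSC and control nerves (y axis, TMM scaling), 1 point per gene, coloured by the outcome of the edgeR test. The genes that rose lie at the left, at control levels up to 14.2, and the genes at the far right, Col1a1, Col1a2 and Col3a1, are all below 0. The control level also enters the fold change, so the axes are not independent.

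Fibrillar collagens build the cross-striated fibrils of connective tissue. All 11 genes of this class were tested, 6 were lower and 3 were higher (2 and 5 with library totals, 5 and 0 with DESeq2), and the median log2 fold change was -0.34 (-0.073 with library totals). The shares over all genes were 16.2% lower and 15.4% higher, or 7.74% and 33.1% with library totals and 8.74% and 8.24% with DESeq2. As a sum, fibrillar collagen genes had 104830, 102000 and 111100 normalised read counts in control and 77926, 74592 and 74573 in Rnf40ΔSC libraries, a ratio of 0.714. As a share of all counts the ratio was 0.858.

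Col3a1, the chain of homotrimeric collagen III, had 48707, 47632 and 51291 normalised read counts in control and 36351, 35655 and 33363 in Rnf40ΔSC libraries. Every control library was higher than every Rnf40ΔSC library, with a narrow spread in both genotypes (log2 fold change -0.49, SE 0.061, edgeR adjusted p = 5.3e-08). The type I chains are the main fibril formers of most connective tissues and assemble with each other. Col1a1 was counted at 19375, 18883 and 21271 in control and at 15587, 14588 and 15844 in Rnf40ΔSC nerves. The groups did not overlap (log2 fold change -0.37, SE 0.067, edgeR adjusted p = 3.71e-05). For Col1a2 the values were 27614, 26651 and 29122 in control and 18275, 17242 and 17328 in Rnf40ΔSC libraries. Again the genotypes were fully apart (log2 fold change -0.66, SE 0.064, edgeR adjusted p = 1.63e-10). With scaling by library totals Col1a1 did not pass (log2 fold change -0.10, edgeR adjusted p = 0.199, range over all alternatives 2.25e-06 to 0.199), whereas Col3a1 and Col1a2 passed in all 13 alternatives. Their log2 fold changes with library totals were smaller, at -0.22 and -0.39. Exons of Col1a1 overlap 109 bases of Gm17329 on the other strand, and the strand setting of the counting is not stated in the sources used here.

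Collagen V is a minor component known to limit the diameter of type I fibrils. Col5a3, a chain known to be secreted by Schwann cells, had 1626, 1863 and 1856 normalised read counts in control and 1374, 1278 and 1561 in Rnf40ΔSC nerves. The highest Rnf40ΔSC library, replicate 3, came close to the lowest control library without reaching it (log2 fold change -0.34, SE 0.088, edgeR adjusted p = 0.00239). The call was lost with library totals (log2 fold change -0.073, edgeR adjusted p = 0.53, range 6.17e-05 to 0.53) and when only Rnf40ΔSC replicate 3 was set against the controls (log2 fold change -0.19, edgeR adjusted p = 0.215). The other type V chains fall outside the rule for genes given in full and are named after their values were seen. Col5a1 had a log2 fold change of -0.46 and passed the test, and Col5a2, of similar level per kilobase in control nerves, had -0.039 and did not. With library totals Col5a1 narrowly missed the threshold (log2 fold change -0.20, edgeR adjusted p = 0.0516, range 1.72e-07 to 0.0516) and Col5a2 passed as higher. Against Rnf40ΔSC replicate 3 alone the log2 fold change of Col5a1 was -0.30.

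Col11a2, Col24a1 and Col2a1 were the fibrillar genes that rose, all from few reads. Collagens II and XI are best known from cartilage. Col11a2 had 23.8, 9.81 and 22.4 normalised read counts in control and 24.8, 44.6 and 41.5 in Rnf40ΔSC nerves. Rnf40ΔSC replicate 1 was barely above the highest control library, while replicates 2 and 3 were clearly higher (log2 fold change 0.98, SE 0.30, edgeR adjusted p = 0.0107). Without control replicate 2 or without Rnf40ΔSC replicate 2 the adjusted p of edgeR was 0.119 and 0.052, and with DESeq2 it was 0.0762 (range 0.00128 to 0.119). Col24a1 was measured at 20.6, 24.0 and 13.8 in control and at 43.1, 28.9 and 33.5 in Rnf40ΔSC nerves, without overlap (log2 fold change 0.90, SE 0.28, edgeR adjusted p = 0.0114). It did not pass without control replicate 3 or Rnf40ΔSC replicate 1 (edgeR adjusted p = 0.124 and 0.0855), nor with DESeq2 (adjusted p = 0.101, range 0.00088 to 0.124). Col2a1, the chain of cartilage collagen II, had 20.6, 15.3 and 9.47 in control and 30.6, 19.3 and 25.5 in Rnf40ΔSC nerves. Here the groups overlapped, since control replicate 1 was above Rnf40ΔSC replicate 2, and the gene was at the edge of the threshold (log2 fold change 0.83, SE 0.33, edgeR adjusted p = 0.0491). Without control replicate 3 its log2 fold change was 0.53. The call was lost without control replicate 2 or 3 and without Rnf40ΔSC replicate 1 or 3 (edgeR adjusted p = 0.0988, 0.296, 0.194 and 0.0636), and with DESeq2 (adjusted p = 0.244, range 0.00705 to 0.296).

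Of the fibrillar genes not given in full, Col11a1 was lower (-0.36), a call that was lost with DESeq2 (adjusted p = 0.0531) and, in edgeR, with library totals (log2 fold change -0.091, adjusted p = 0.519), without control replicate 3 (adjusted p = 0.052) and without Rnf40ΔSC replicate 1 (adjusted p = 0.0595, range 0.00573 to 0.519). Col27a1 had a log2 fold change of 0.027 and did not pass. Col11a1 and Col11a2, chains that can share a trimer, thus had fold changes of opposite sign. Their difference was not tested.

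**Figure D3:**
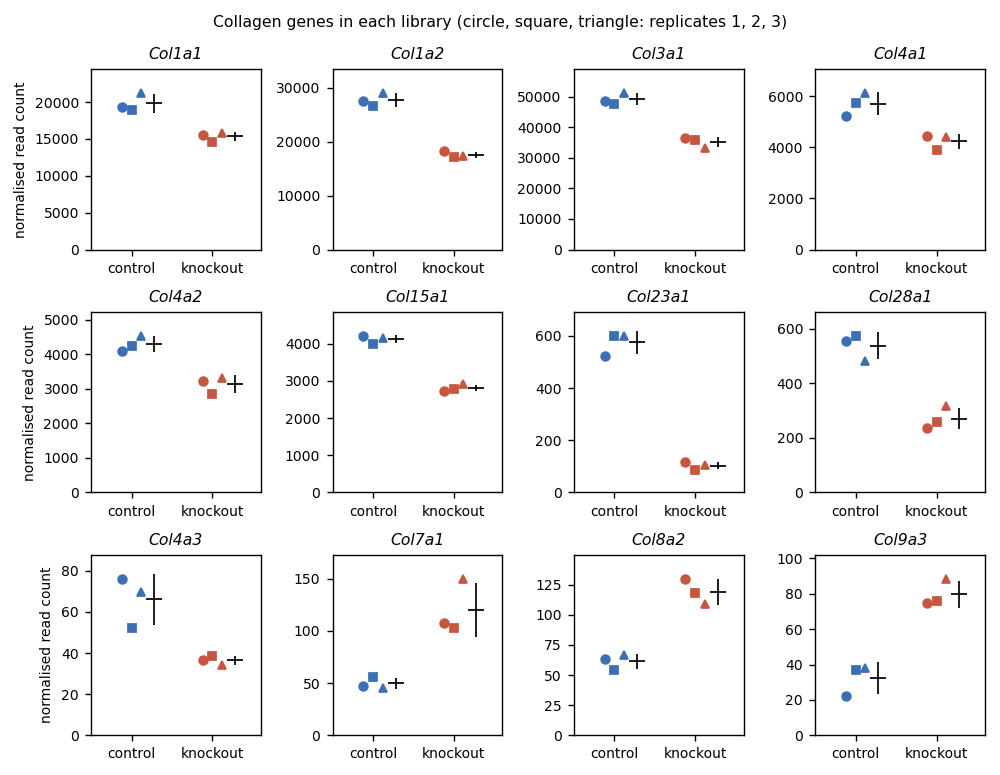
Normalised read counts of 12 collagen genes (y axis) in each control and Rnf40ΔSC library (x axis), 1 symbol per library, with the mean and SD of 3 libraries beside them. The genes were picked as examples of changed genes after their values had been seen, with Col7a1, Col8a2 and Col9a3 higher and the other nine lower in Rnf40ΔSC nerves.

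Collagen IV forms the network of basement membranes. Of 6 genes, 5 were tested, 3 were lower (2 with library totals) and 0 were higher by edgeR, by DESeq2 and with library totals, and the median log2 fold change was -0.45 (-0.19 with library totals). Of all genes 16.2% were lower (7.74% with library totals). At an unadjusted p under 0.05 edgeR gave 5 lower and 0 higher, where 20.7% and 20.3% of all genes were. The sum over the class was 9584, 10189 and 10907 normalised read counts in control and 7835, 6901 and 7892 in Rnf40ΔSC libraries, a ratio of 0.738, or 0.887 as a share of all counts. Col4a1 and Col4a2 encode the chains of the trimer found in nearly every basement membrane. Their genes lie head to head on chromosome 8 (Col4a1 chr8:11198423-11312826, minus strand; Col4a2 chr8:11312805-11449287, plus strand; mm9, GENCODE vM1) with 22 bases of exon in common.

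Promoter windows, 250 bases before to 50 after the transcript start, were available from RefSeq (build GRCm38.p6) for 35 of the 44 collagen genes. The windows of Col4a1 (chr8:11312777-11313076, minus strand) and Col4a2 (chr8:11312555-11312854, plus strand) are shown because both genes share this region and both were lower, and capitals mark the 78 bases that they have in common (chr8:11312777-11312854).
Col4a1: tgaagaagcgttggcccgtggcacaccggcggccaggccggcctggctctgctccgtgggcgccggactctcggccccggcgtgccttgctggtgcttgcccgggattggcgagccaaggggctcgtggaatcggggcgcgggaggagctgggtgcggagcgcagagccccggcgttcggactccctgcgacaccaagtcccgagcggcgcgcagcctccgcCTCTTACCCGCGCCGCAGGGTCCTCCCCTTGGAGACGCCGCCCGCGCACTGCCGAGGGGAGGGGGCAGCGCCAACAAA
Col4a2: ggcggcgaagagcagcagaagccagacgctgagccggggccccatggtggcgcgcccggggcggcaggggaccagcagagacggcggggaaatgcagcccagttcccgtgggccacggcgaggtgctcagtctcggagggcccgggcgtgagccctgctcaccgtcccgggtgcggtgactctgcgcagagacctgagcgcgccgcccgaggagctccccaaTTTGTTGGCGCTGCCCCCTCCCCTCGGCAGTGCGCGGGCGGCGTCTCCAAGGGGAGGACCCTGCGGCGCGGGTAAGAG
Each window is written 5′ to 3′ on the strand of its own gene, so that the capitals of one are the reverse complement of those of the other. Both windows held GCGNGGGCG, the letters of the Egr motif, as a single match within the shared bases. Of the 35 collagen genes, Col8a1 was the only other with these letters. This motif, searched on both strands, was present in 5.55% of 32851 promoters. A match is a description of letters and not a binding site.

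Col4a1 had 5243, 5723 and 6137 normalised read counts in control and 4424, 3897 and 4397 in Rnf40ΔSC nerves. All control libraries were higher (log2 fold change -0.43, SE 0.077, edgeR adjusted p = 3.72e-05). Col4a2 followed with 4099.8, 4231 and 4535 in control and 3227, 2843 and 3323 in Rnf40ΔSC nerves, again without overlap (log2 fold change -0.45, SE 0.078, edgeR adjusted p = 1.81e-05). With library totals Col4a1 did not pass (log2 fold change -0.16, edgeR adjusted p = 0.0833, range 1.11e-06 to 0.0833) and Col4a2 did (log2 fold change -0.19, edgeR adjusted p = 0.049, range 2.44e-07 to 0.049). Per kilobase, the ratio of Col4a1 to Col4a2 was 1.25, 1.32 and 1.32 in control and 1.34, 1.34 and 1.29 in Rnf40ΔSC libraries. The genotypes overlapped in this ratio.

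Col4a3 encodes a chain of the specialised collagen IV network known from kidney glomeruli. It was a minor transcript, with 76.2, 52.3 and 69.7 normalised read counts in control and 36.4, 38.6 and 34.3 in Rnf40ΔSC nerves. Control libraries were spread more widely but all lay above the Rnf40ΔSC libraries (log2 fold change -0.85, SE 0.20, edgeR adjusted p = 0.00117). Col4a4 and Col4a5, its partners in that network, had log2 fold changes of -0.48 and -0.29 and did not pass the test. Col4a4 starts 71 bases from Col4a3 on the opposite strand of chromosome 1. Col4a6 had too few reads to be tested.

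Collagen XXIII is a transmembrane collagen, and its gene showed the steepest fall of all 37 collagen genes tested. Col23a1 (chr11:51103422-51397420, plus strand; mm9) had 524, 599 and 601 normalised read counts in control and 116, 86.8 and 105 in Rnf40ΔSC nerves. Even the highest Rnf40ΔSC library was far below the lowest control library. The mean was 575 ± 43.9 in control and 103 ± 14.7 in Rnf40ΔSC nerves (SD, n = 3 libraries each; log2 fold change -2.47, SE 0.11, edgeR adjusted p = 7.54e-20), which is a fold change of 0.180. Adjusted p-values of its test ran from 2.99e-101 to 5.08e-13 over all alternatives. Its promoter window (chr11:51289670-51289969, plus strand, GRCm38.p6, RefSeq) is shown as that of the gene with the strongest change, with capitals for the only match to a GC box, GGGCGG on the other strand.
Col23a1: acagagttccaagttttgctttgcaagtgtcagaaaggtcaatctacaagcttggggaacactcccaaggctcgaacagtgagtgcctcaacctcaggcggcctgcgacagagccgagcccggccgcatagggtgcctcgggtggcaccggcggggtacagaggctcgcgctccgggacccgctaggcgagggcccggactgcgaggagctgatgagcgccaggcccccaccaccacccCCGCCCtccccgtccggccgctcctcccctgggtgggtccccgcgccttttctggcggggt
GC boxes were present in the windows of 22 of the 35 collagen genes and in 35.7% of all promoters. The remaining transmembrane collagen genes, Col13a1, Col17a1 and Col25a1, had at most 6.03 normalised read counts in any library and were not tested. The class as a whole therefore rests on Col23a1, and its sum was 530.3, 606 and 609 normalised read counts in control and 128, 96.4 and 115 in Rnf40ΔSC libraries. Fitted without a filter on low counts, the class median over all 4 genes was 0.052, and with DESeq2 it was 0.058.

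FACIT collagens attach to the surface of fibrils. In this class 8 of 9 genes were tested, 2 were lower and 2 were higher (2 and 6 with library totals, 2 and 1 with DESeq2), where 16.2% and 15.4% of all genes were (7.74% and 33.1% with library totals), and the median log2 fold change was 0.58. Col9a1 and Col19a1 had enough counts to be tested only through their Rnf40ΔSC libraries, which favours rises in this median. Over the FACIT genes with at least 10 counts in every library the median was 0.18. Their sum was 1723, 1848 and 1743 normalised read counts in control and 1475, 1387 and 1466 in Rnf40ΔSC libraries, with Col14a1 as its most abundant gene. As a share of all counts the ratio of FACIT sums was 0.980, and Rnf40ΔSC replicate 3 was then within the control range.

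Col9a3, a chain of collagen IX that is best known from cartilage, had 22.2, 37.0 and 37.9 normalised read counts in control and 74.5, 75.9 and 88.6 in Rnf40ΔSC nerves. All Rnf40ΔSC libraries were clearly higher than all control libraries (log2 fold change 1.25, SE 0.20, edgeR adjusted p = 6.57e-06), and the gene passed in all 13 alternatives. Its exons overlap Tcfl5 on the other strand over 234 bases, so that reads of both cannot be told apart there if strand was not used. Col19a1, a collagen of basement membrane zones and early muscle, rose from 4.76, 7.63 and 5.16 in control to 19.9, 18.1 and 11.2 in Rnf40ΔSC nerves. Although the groups were apart, all values were low (log2 fold change 1.44, SE 0.43, edgeR adjusted p = 0.00899), and the base mean of 11.1 was under the limit of 20. The call was lost without control replicate 3 or Rnf40ΔSC replicate 1 (edgeR adjusted p = 0.0627 and 0.0663) and with DESeq2 (adjusted p = 0.0836, range 0.00152 to 0.377). Against Rnf40ΔSC replicate 3 alone its log2 fold change was 0.91 and did not pass (edgeR adjusted p = 0.377).

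The lower FACIT genes were Col14a1, which binds to collagen I fibrils, with a log2 fold change of -0.53, and Col16a1 with -0.74. Both passed in all 13 alternatives, with smaller log2 fold changes of -0.26 and -0.47 under library totals. The FACIT genes that did not pass, Col9a1, Col9a2, Col12a1 and Col20a1, had log2 fold changes from 0.17 to 0.93. All 4 values were positive, and all but Col12a1 had a base mean of at most 60.1. Col9a1 had 3, 9 and 6 reads in control and 19, 10 and 13 in Rnf40ΔSC libraries. Only the latter were enough for it to be tested, so the filter favoured its positive sign. Col22a1 was not tested.

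Collagen VI forms beaded microfilaments between basement membranes and fibrils and is known to be made by Schwann cells and endoneurial fibroblasts. Of its 6 genes 5 were tested, 3 were lower (2 with library totals, 4 with DESeq2), against 16.2% of all genes (7.74% and 8.74%), and the median log2 fold change was -0.54 (-0.27 with library totals). Col6a1 had 2379, 2184 and 2434 normalised read counts in control and 1778, 1597 and 1867 in Rnf40ΔSC nerves. The genotypes did not overlap (log2 fold change -0.42, SE 0.083, edgeR adjusted p = 0.000143), but the call was lost with library totals (log2 fold change -0.15, edgeR adjusted p = 0.153, range 1.02e-05 to 0.153). Col6a2 was measured at 1904, 1682 and 2025 in control and at 1378, 1082 and 1400.4 in Rnf40ΔSC nerves. Rnf40ΔSC replicate 2 was the lowest of all libraries, and control values were above all Rnf40ΔSC values (log2 fold change -0.54, SE 0.094, edgeR adjusted p = 2.48e-05). Col6a3 had 1996, 1703 and 1986 in control and 1254, 1233 and 1403 in Rnf40ΔSC nerves, with the lowest control library, replicate 2, still above the highest Rnf40ΔSC library (log2 fold change -0.55, SE 0.087, edgeR adjusted p = 4.6e-06). With library totals Col6a2 and Col6a3 had log2 fold changes of -0.27 and -0.28 and passed. Col6a5 and Col6a6, alternative chains of this type, had log2 fold changes of -0.55 and -0.29 and did not pass, whereas Col6a5 passed as lower with DESeq2 and without a filter on low counts. Col6a4 was not tested.

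Collagens XV and XVIII are multiplexins, which sit at the outer face of basement membranes, and collagen XV is known for its part in nerve maturation. Col15a1 had 4216, 3999 and 4153 normalised read counts in control and 2733, 2788 and 2904 in Rnf40ΔSC nerves. The spread within each genotype was small against the gap between them (log2 fold change -0.55, SE 0.075, edgeR adjusted p = 2.58e-07). With library totals its log2 fold change was -0.29 and still passed. Col18a1, the source of endostatin, had 330.3, 291 and 294 in control and 244, 236 and 287 in Rnf40ΔSC nerves. Although the Rnf40ΔSC values were all below the control values, replicate 3 nearly reached them, and the gene did not pass (log2 fold change -0.24, SE 0.11, edgeR adjusted p = 0.0761). Without Rnf40ΔSC replicate 3 it passed (log2 fold change -0.32, edgeR adjusted p = 0.0162), and with library totals its sign turned (log2 fold change 0.027, edgeR adjusted p = 0.866, range 0.0162 to 0.866). Against Rnf40ΔSC replicate 3 alone its log2 fold change was -0.075.

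Collagen XXVIII is known as a component of basement membranes around Schwann cells of peripheral nerve. Col28a1 (chr6:7947808-8142617, minus strand; mm9) had 556, 574 and 483 normalised read counts in control and 238, 259 and 315 in Rnf40ΔSC nerves. Control replicate 3 was the lowest control library and still far above Rnf40ΔSC replicate 3, the highest of its genotype (log2 fold change -0.98, SE 0.11, edgeR adjusted p = 1.69e-09). It passed in all 13 alternatives. The promoter window (chr6:8192568-8192867, minus strand, GRCm38.p6, RefSeq) is shown beside that of Col23a1 as the other strongly lower gene, and it has no capitals because it held no match to the GC box, to CCAAT or to GCGNGGGCG on either strand.
Col28a1: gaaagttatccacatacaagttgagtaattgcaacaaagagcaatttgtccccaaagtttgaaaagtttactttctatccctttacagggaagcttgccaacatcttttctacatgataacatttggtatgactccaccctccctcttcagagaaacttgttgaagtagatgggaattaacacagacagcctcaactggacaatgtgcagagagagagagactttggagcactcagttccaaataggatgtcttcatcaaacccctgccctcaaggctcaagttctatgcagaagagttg
It held ACAAAG and ACAATG, letters bound by Sox factors in general, which were in 18.7% and 12.6% of all promoters and in 5 and 1 of the 35 collagen windows. Col26a1, the other unclassified gene, had a log2 fold change of -0.11 and did not pass.

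Collagen VII forms the anchoring fibrils that tie the epidermal basement membrane to the dermis. Col7a1 (chr9:108855631-108886920, plus strand; mm9) had 47.6, 55.6 and 45.6 normalised read counts in control and 108, 102 and 150.0 in Rnf40ΔSC nerves. All Rnf40ΔSC libraries were higher, replicate 3 most of all (log2 fold change 1.29, SE 0.18, edgeR adjusted p = 2.84e-07), and the test was passed in all 13 alternatives. Col7a1, Col23a1 and Col28a1, like Tll1, Itgb4, Cdh19 and Foxd3 of the lists below, are named in gene lists of the study that were drawn at least in part from these libraries, so that their changes here are not independent evidence. The promoter window of Col7a1 (chr9:108953336-108953635, plus strand, GRCm38.p6, RefSeq) is shown for a gene that rose, with capitals for a CCAAT box on the other strand and a GC box.
Col7a1: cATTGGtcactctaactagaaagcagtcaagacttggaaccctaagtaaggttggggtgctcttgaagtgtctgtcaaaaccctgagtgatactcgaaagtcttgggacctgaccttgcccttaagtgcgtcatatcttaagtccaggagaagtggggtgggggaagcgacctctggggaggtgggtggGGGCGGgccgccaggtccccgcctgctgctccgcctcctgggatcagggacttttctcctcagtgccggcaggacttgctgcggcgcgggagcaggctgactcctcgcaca
CCAAT was present in 13 of the 35 collagen windows and in 37.4% of all promoters, and TATAAA in 5 and in 13.6%.

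Collagen VIII is a short-chain collagen that forms lattices, among others below endothelia. Col8a2 had 63.5, 54.5 and 66.3 normalised read counts in control and 130.0, 118 and 109 in Rnf40ΔSC nerves. The genotypes were fully apart (log2 fold change 0.95, SE 0.16, edgeR adjusted p = 1e-05), and the gene passed in all 13 alternatives. Its partner Col8a1 had a log2 fold change of 0.021 and did not pass. Col10a1, a relative known from hypertrophic cartilage, had at most 1 read in any library.

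Where chains can assemble in the same trimer, their ratio per kilobase does not depend on how libraries are scaled. Ratios were compared for 8 pairs, chosen after the values had been seen, by a two-sided exact permutation test over 3 against 3 libraries, which cannot give a p below 0.1. Col1a1 to Col1a2 was 0.633, 0.639 and 0.659 in control and 0.769, 0.763 and 0.824 in Rnf40ΔSC libraries, with all Rnf40ΔSC libraries above the control libraries. Col5a1 to Col5a2 was 1.01, 1.02 and 0.938 in control and 0.701, 0.671 and 0.841 in Rnf40ΔSC libraries, with the Rnf40ΔSC libraries all lower. For Col8a2 to Col8a1 the ratio was 0.153, 0.135 and 0.178 in control and 0.332, 0.257 and 0.303 in Rnf40ΔSC libraries. Both the type VIII ratio and that of Col9a3 to Col9a2 were higher in every Rnf40ΔSC library, the latter with 0.617 ± 0.110 in control and 1.12 ± 0.235 in Rnf40ΔSC nerves (SD, 3 libraries each). The ratio of Col6a3 to Col6a1 was 0.380 ± 0.0139 in control and 0.348 ± 0.0159 in Rnf40ΔSC nerves. These 5 pairs had the smallest exact permutation p the design allows (p = 0.1, adjusted p = 0.16 over the 8 pairs). As the pairs were chosen after their values had been seen, these p-values only restate the separation and decide nothing. Col4a1 to Col4a2, Col5a3 to Col5a1 and Col6a1 to Col6a2 overlapped between the genotypes (exact permutation p = 0.5, 0.3 and 0.2).

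Chains are hydroxylated, glycosylated and folded in the endoplasmic reticulum before secretion. Of 20 genes for these steps, 7 were lower and 3 were higher, where 16.2% and 15.4% of all genes were, and the median log2 fold change was -0.14. With library totals 0 were lower and 6 higher, where 7.74% and 33.1% of all genes were, with a median of 0.13 against 0.27 for all genes, and DESeq2 gave 3 lower and 3 higher. P4ha3, a catalytic subunit of the prolyl hydroxylase that stabilises the helix, had 38.1, 34.9 and 29.3 normalised read counts in control and 158, 206 and 164 in Rnf40ΔSC nerves, the opposite direction to the abundant chains (log2 fold change 2.38, SE 0.17, edgeR adjusted p = 4.47e-14). The glycosyltransferase gene Colgalt2 (log2 fold change 0.78, SE 0.21, edgeR adjusted p = 0.00444) and the prolyl isomerase gene Ppib (log2 fold change 0.35, SE 0.10, edgeR adjusted p = 0.0066) were the other genes that rose, Ppib with 0.62 under library totals. Crtap, which assists prolyl hydroxylation, P4ha2 and the lysyl hydroxylase gene Plod3 had the largest falls, with log2 fold changes of -0.65, -0.61 and -0.59, and none of these 3 passed with library totals, nor did P4ha2 with DESeq2.

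After secretion, propeptides are cleaved and fibrils are crosslinked. In this list 6 of 13 genes were lower and 0 were higher by edgeR (16.2% and 15.4% of all genes), with a median log2 fold change of -0.27. DESeq2 gave 4 lower and 0 higher, library totals 3 and 1 with a median of -0.0024, and an unadjusted p under 0.05 in edgeR 6 and 1. Over all genes library totals gave 7.74% lower and 33.1% higher. The largest falls were those of Tll1, a procollagen C-proteinase (log2 fold change -1.40, SE 0.27, edgeR adjusted p = 7.69e-05), Lox, the lysyl oxidase that starts crosslinking (log2 fold change -0.91, SE 0.11, edgeR adjusted p = 9.63e-08), and Adamts2, a procollagen N-proteinase (log2 fold change -0.60, SE 0.095, edgeR adjusted p = 4.44e-06). Under library totals the log2 fold change of Adamts2 was -0.33. Lox had 1008, 1298 and 1091 normalised read counts in control and 711, 552 and 543 in Rnf40ΔSC nerves, without overlap.

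Partners of collagen fibrils include small proteoglycans and glycoproteins that bind to the fibril surface. Of 15 genes 13 were tested, 11 were lower and 0 were higher by edgeR, the same numbers as at an unadjusted p under 0.05 (10 and 0 by DESeq2), and the median log2 fold change was -0.54. Among all genes 16.2% were lower, or 20.7% at the unadjusted p, but several of these partners are abundant, and where the base mean reached 1000 the share was 53.4%. With library totals 8 were lower and 1 was higher, where 7.74% and 33.1% of all genes were, with a median of -0.27. The small proteoglycan gene Ogn had 4708, 6143 and 5454 normalised read counts in control and 1497, 1470.4 and 1376 in Rnf40ΔSC nerves, the strongest fall of the list (log2 fold change -1.91, SE 0.086, edgeR adjusted p = 6.82e-20). Next were Tnxb, a tenascin that binds fibrils (log2 fold change -0.85, SE 0.092, edgeR adjusted p = 2.1e-09), and the matricellular gene Postn (log2 fold change -0.80, SE 0.082, edgeR adjusted p = 4.27e-10).

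Collagen receptors connect the chains to cells. Of 12 genes 10 were tested, 2 were lower and 0 were higher by edgeR (3 and 0 at an unadjusted p under 0.05), where 16.2% of all genes were lower, and the median log2 fold change was -0.16, or 0.11 with library totals. The lower genes were Gpr126, an adhesion receptor that binds collagen IV and is needed for myelination (log2 fold change -0.42, SE 0.11, edgeR adjusted p = 0.00477), and the collagen uptake receptor gene Mrc2 (log2 fold change -0.31, SE 0.12, edgeR adjusted p = 0.0416). Neither passed with library totals, and Mrc2 did not with DESeq2.

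Genes for other components of basement membranes were partly lower like Col4a1 and Col4a2. Of 11 tested, 5 were lower and 1 was higher, with a median log2 fold change of -0.35 (3 lower, 2 higher and a median of -0.079 with library totals), where 16.2% of all genes were lower and 15.4% higher (7.74% and 33.1% with library totals). The falls were led by Nid2, which links laminin to collagen IV (log2 fold change -0.76, SE 0.084, edgeR adjusted p = 3.77e-09), Agrn (log2 fold change -0.55) and Lamb2 (log2 fold change -0.48), the last of which did not pass with library totals. On that scale the log2 fold changes of Nid2 and Agrn were -0.49 and -0.28. The gene that rose was the laminin chain gene Lama1, which the study also names from these libraries, with 2, 0 and 3 reads in control and 102, 61 and 121 reads in Rnf40ΔSC libraries (edgeR adjusted p = 9.82e-15). As control libraries held almost no reads, the size of its fold change is not given.

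**Figure D4:**
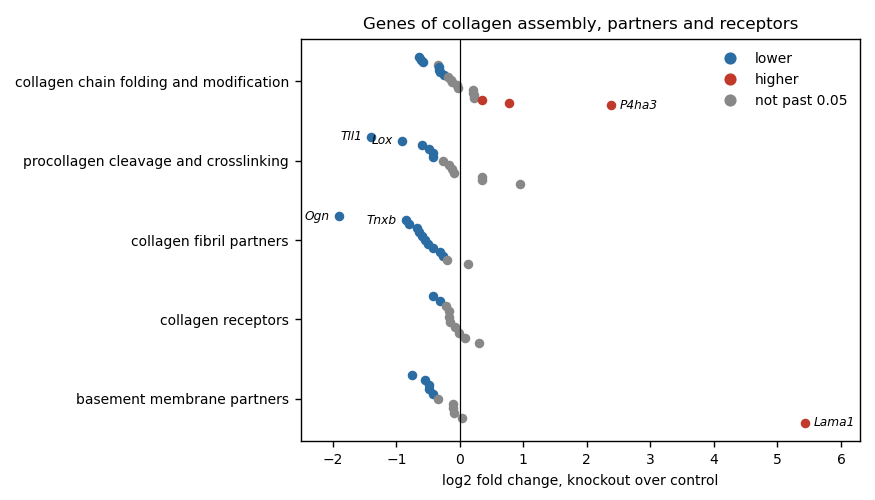
Log2 fold change between Rnf40ΔSC and control nerves (x axis, TMM scaling) of genes that fold and modify collagen chains, cleave and crosslink them, bind to fibrils or cells, or share the basement membrane, 1 point per tested gene, coloured by the outcome of the edgeR test. Partners of fibrils are lower in 11 of 13 genes (8 with library totals), while P4ha3 (2.38) and Lama1 stand out among the genes that rose.

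Markers of most cell types of the nerve were lower as well, and their part in the collagen results was not tested. Sums of marker RNA are not counts of cells. By staining at this age, the study found a comparable share of Sox10-positive Schwann cells in both genotypes. It found more Iba1-positive macrophages in Rnf40ΔSC nerves. For the counts of lower markers below, the share over all genes was 16.2%, or 7.74% with library totals and 8.74% with DESeq2. Of the Schwann cell markers 5 of 6 were lower and Foxd3 was higher, and the sum of the list had a ratio of 0.593 (0.713 as a share of counts). Gfra3 was at 0 or 1 read in each Rnf40ΔSC library. Fibroblast markers were lower in 7 of 8 genes (5 lower and 1 higher with library totals) with a ratio of sums of 0.818, and as a share of counts this ratio was 0.984. Without Dcn, the most abundant gene of the list, these ratios were 0.781 and 0.939. The shares without Dcn did not overlap between the genotypes. Dcn and Lum belong both to this list and to the fibril partners.

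Perineurial markers, led by Itgb4, were lower in 3 of 6 tested genes (2 with library totals) and summed to 1689, 1961 and 1931 normalised read counts in control and 1131, 928 and 1025 in Rnf40ΔSC libraries. Itgb4, which Schwann cells also express, carried most of this fall. Without it the sums were 876, 1035 and 979 in control and 845, 694 and 714 in Rnf40ΔSC libraries. Endothelial markers, led by Cdh5, were lower in 5 of 7 genes (1 with library totals), with sums of 1367, 1226 and 1404 normalised read counts in control and 870.2, 881 and 1061 in Rnf40ΔSC libraries. Markers of pericytes and smooth muscle, led by Pdgfrb, were lower in 6 of 8 genes (4 with library totals) and summed to 2315, 1730.3 and 2005 normalised read counts in control and 1259, 1251 and 1495 in Rnf40ΔSC libraries. All 3 lists had lower sums in every Rnf40ΔSC library than in any control library, as did the Schwann cell, fibroblast, macrophage and adipocyte lists. As shares of all counts, the endothelial and the pericyte sums overlapped between the genotypes, and so did the perineurial sum without Itgb4, with a ratio of 0.937. Macrophage markers, led by Csf1r, were lower in 7 of 9 genes, or 2 with library totals and 3 with DESeq2 (927, 859 and 945 normalised read counts in control and 643, 630.4 and 629 in Rnf40ΔSC libraries), and adipocyte markers, led by Cfd, in 3 of 6 genes, or 2 with library totals (618, 438 and 706 normalised read counts in control and 324, 354 and 313 in Rnf40ΔSC libraries).

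Cartilage and tendon markers were of interest because Col2a1, Col9a3 and Col11a2 are typical of cartilage. They were led by Sox9 and summed to 85.7, 82.8 and 91.2 normalised read counts in control and 106, 111 and 67.0 in Rnf40ΔSC libraries, and 4 of the 8 had at most 3 reads in every library. Without Sox9 the sums were 12.7, 20.7 and 16.4 in control and 23.2, 33.7 and 22.3 in Rnf40ΔSC libraries. Every Rnf40ΔSC library was then above every control library, though from few reads. Hapln1 alone carried this separation, with 1.59, 3.27 and 3.44 in control and 14.1, 19.3 and 11.2 in Rnf40ΔSC libraries. Acan, Tnmd and Mkx had lower means in Rnf40ΔSC nerves, and Matn3 and Scx had slightly higher means near 0. Acan, Matn3 and Chad, which define cartilage, and the tendon gene Scx were at or near 0 in all libraries of both genotypes. Only 2 of these markers were tested, and of these Hapln1 was higher and Sox9 did not pass. Hapln1 had 1, 3 and 4 reads in control and 17, 16 and 14 in Rnf40ΔSC libraries. Only the latter gave it enough counts for testing.

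Skeletal muscle markers, led by Myh4, did not follow genotype. They summed to 7934, 5895 and 4398 normalised read counts in control and 169.7, 433 and 5713 in Rnf40ΔSC libraries, so that Rnf40ΔSC replicates 1 and 2 stood apart from the other four libraries. None of the 10 muscle genes passed the test (0 lower and 0 higher by edgeR, also at an unadjusted p under 0.05, and by DESeq2). To compare libraries of like muscle content, the control libraries were set against Rnf40ΔSC replicate 3 alone, an alternative chosen after the data had been seen. The single library is then assumed to vary as the controls do. In this comparison 15 collagen genes were lower and 5 were higher, where 10.5% and 9.33% of all genes were. Of these, 15 and 4 were also among the 17 lower and 7 higher genes of the full comparison, and the collagen median was -0.24. The genes that no longer passed were Col2a1, Col5a3, Col11a1, Col19a1 and Col24a1, and Col20a1 newly passed as higher.

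**Figure D5:**
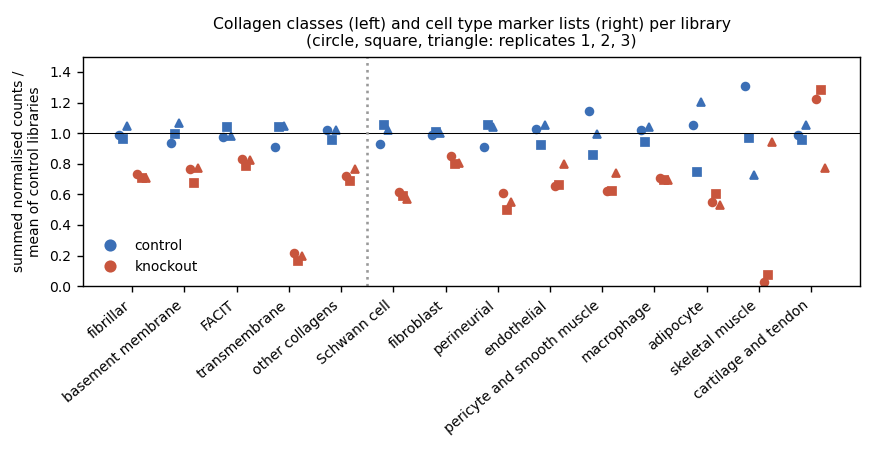
Summed normalised read counts of each collagen class and each marker list (x axis) in every library, divided by the mean of the control libraries (y axis, TMM scaling), 1 symbol per library. All 5 collagen groups drawn have a mean below 1 in Rnf40ΔSC nerves (for FACIT 0.814, or 0.980 as a share of counts), with Col7a1 and Col8a2, which rose, pooled into other collagens; the mean is lowest for the transmembrane class, the fibroblast list has a ratio of 0.818, and skeletal muscle is low only in Rnf40ΔSC replicates 1 and 2.

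Several collagen genes are neighbours in the genome, and neighbours did not always move together. Col3a1 and Col5a2 lie tail to tail on chromosome 1 with 24614 bases between them, and Col3a1 was lower while Col5a2 did not pass. Col9a1 and Col19a1 are tail to tail on the same chromosome at a distance of 9151 bases, and both had positive log2 fold changes (0.93, not past the threshold, and 1.44). Both had enough counts to be tested only through their Rnf40ΔSC libraries. Col6a2 and Col6a1, on the same strand of chromosome 10 with 85161 bases between them, were both lower. Exons of Col5a1 overlap Gm13372 (113 bases) and 2810430I11Rik (99 bases), those of Col4a2 overlap Gm15419 (43 bases), those of Col7a1 overlap Mir711 (36 bases) and those of Col15a1 overlap Gm12426 (14 bases), where reads could be shared. Positions are from GENCODE vM1 on mm9, in which Col26a1 carries its older name Emid2.

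The 7 collagen genes that were not tested were Col4a6, Col6a4, Col10a1, Col13a1, Col17a1, Col22a1 and Col25a1. None had more than 7 reads in any library.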

How the data were processed

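The authors aligned reads of 6 sciatic nerve libraries to the mouse genome and deposited raw counts of reads per gene from HTSeq, without normalization. Methods name mm9 and TopHat, whereas the submitters' processing notes name mm9, mm10 and Bowtie2 2.1.0. Annotation and strand setting of the counting are not given in the sources used here.

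Genes kept by filterByExpr (11371) were scaled by TMM and tested in R 4.3.3 with edgeR 4.0.16 (robust quasi-likelihood fit, genotype as the only term, Benjamini-Hochberg adjustment). Standard errors are from the fit. P-values rest on the spread between 3 pools per genotype. Library totals from 1317167 to 2468765 limit precision for genes with few reads. Replicates differed by more than sampling noise (chi-square per degree of freedom 1.78 to 5.21).

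Collagen genes and lists were chosen with earlier results of these data known. Full values are given for collagen genes that passed with a log2 fold change of 0.8 or more in size, and for Col1a1, Col1a2, Col3a1, Col4a1, Col4a2, Col5a3, Col6a1, Col6a2, Col6a3, Col15a1 and Col18a1. Of the other lists, up to 3 genes with the largest rise and up to 3 with the largest fall among those that passed are named, and Rnf40. Other genes were named after their values were seen. A further Schwann cell marker is not reported here. Figures were drawn with matplotlib 3.10.9.

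Alternatives were RLE and total-count scaling, DESeq2 1.42.0, no filter, a minimum of 10 counts per library, a block for the replicate number, the omission of single libraries, and, chosen after the data had been seen, control libraries against Rnf40ΔSC replicate 3. The code was tested on simulated data.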

Additional observations from a re-analysis of the deposited data

How the results depend on the processing

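Of the collagen genes that passed the test or are given in full, 292 log2 fold changes over the alternatives kept direction and side of the threshold, 29 fell short of it, 1 newly passed and 1 was reversed, namely Col18a1 with total-count scaling (0.027). Total-count scaling gave 11 lower and 14 higher collagen genes, 1 lower gene past the fold and base mean limits, and medians of -0.073 for all collagen genes, -0.073 for fibrillar, -0.19 for basement membrane, 0.84 for FACIT, -2.21 for transmembrane (-2.205) and -0.082 for other collagens. These moved with the median of all genes, which this scaling set at 0.27. DESeq2 gave 3 higher genes, 3 of them past the limits, and medians of -0.25 for all, 0.73 for FACIT and 0.058 for transmembrane collagens. Without a filter on low counts, medians were -0.21 for all, 0.73 for FACIT, 0.052 for transmembrane and -0.26 for other collagens. Both settings include genes with few reads that the filter removed. With at least 10 counts in every library the FACIT median was 0.18, over fewer genes. When each library was left out, higher collagen genes numbered 4 to 7, where 11.1% to 16.7% of all genes were higher. The FACIT median then ran from 0.45 to 0.69 and that of other collagens from -0.47 to -0.31 (-0.305). Control libraries against Rnf40ΔSC replicate 3, chosen after seeing the data, gave medians of -0.24 for all, -0.19 for fibrillar, 0.45 for FACIT and -0.23 for other collagens. Where not stated, the cause was not tested. Of the collagen genes that passed, Col19a1 and Col2a1 had the lowest base means (11.1 and 20.1) and the largest standard errors (0.43 and 0.33).

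With the replicate number as a replicate block, 17 collagen genes were lower and 6 higher, and Col2a1 was the call lost (log2 fold change 0.79, edgeR adjusted p = 0.0666, range over alternatives 0.00705 to 0.296). Libraries with the same number did not deviate together (correlations of -0.0984, -0.0206 and -0.0568 across genes), so the numbers do not pair the samples.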
